A study of Mus musculus with 2 samples.

Results

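The genes Prss56, Mfrp, C1qtnf5, Adipor1, Adipor2 and Tmem98 are tied to eye size, eye length or the retinal supply of docosahexaenoic acid, and were described here in eye cups of mouse pups at postnatal day 13. A probe set, the group of short probes that reads a transcript on an Affymetrix array, was taken as a member when its platform annotation carried 1 of these 6 symbols and no other. This gave 7 probe sets for 4 of the 6 genes, out of 18193 genes with a probe set of their own, while Mfrp and C1qtnf5 had 0 such probe sets and shared 1 that lists both symbols. The genes were chosen by symbol, with earlier log2 differences between these same arrays known, that of Prss56 among them, so that every difference below is a description. Per the labels, 1 array carried RNA of Mfsd2a KO eye cups and the other RNA of wild-type (WT) eye cups. They are called the array labelled Mfsd2a KO and the WT array, since the level of Mfsd2a, given below, goes against the first label. Each array held an equal mix of RNA from 6 animals, and both were read on Mouse 430 2.0 arrays. An eye cup is the retina with pigment epithelium, choroid and sclera, left once the front of the eye and the optic nerve are gone. The strain, the sex of the pups and the deleted part of Mfsd2a are not given in the sources used here.

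The eye grows after birth until its length matches the focus of cornea and lens, and an eye that stops too early is short and farsighted. In people, variants of PRSS56, MFRP and TMEM98 cause nanophthalmos, a small eye that is otherwise well formed. Prss56 encodes a secreted serine protease that mouse Mueller glia make. Mfrp, a membrane protein with a frizzled-type domain, C1qtnf5, a secreted C1q-like protein, and Tmem98, a membrane protein that binds the transcription factor Myrf, are known from the pigment epithelium. Adipor1 and Adipor2 encode membrane receptors of the hormone adiponectin. Mice without Adipor1 and mice with the rd6 mutation of Mfrp lose docosahexaenoic acid from the retina, and Prss56 transcript was found raised in rd6 eyes. Mfsd2a carries the same fatty acid, bound to lysophosphatidylcholine, into the eye.

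Prss56 was the 1 member past 1.2-fold in either direction, and it was higher on the array labelled Mfsd2a KO. The other 3 genes with a probe set of their own differed by at most 0.17 on the log2 scale. Every value is 1 intensity per genotype with no replicate, and no test or p-value can be had from it. The technical error that could be computed is the SD of log2 differences among probe sets of the same gene, which was 0.089 over 5201 genes that had 2 or more probe sets over the floor. It leaves out the spread between animals and between arrays. The floor is the median intensity of each array, 93.4 on the array labelled Mfsd2a KO and 94.2 on the WT array, and a gene was taken as measured if the larger of its intensities was at or over the floor of the array it came from. Of 11568 measured genes, 1.79% lay 1.2-fold or more above and 1.17% lay 1.2-fold or more below their WT value, with a median log2 difference of 0.014.

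The labels were checked first with the deleted gene. Mfsd2a read 244 on the array labelled Mfsd2a KO and 181 on the WT array, 1.35-fold higher and so against the label, although its 1 probe set may lie outside the deletion. Sex-linked transcripts differed as well: Xist, made from the inactive X chromosome of females, read 4357 on the array labelled Mfsd2a KO and 7055 on the WT array, and the Y-linked gene Uty read 157 on the array labelled Mfsd2a KO and 78.2 on the WT array. Genotype, the sex of the pups, dissection and handling of the arrays cannot be told apart in a design of 1 pool a genotype. None of the 6 genes lies on a sex chromosome.

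The 250 bases upstream of the RefSeq transcript starts of Prss56 and of the Mfrp and C1qtnf5 locus are given below, on assembly GRCm38.p6. The first belongs to the member that differed, and the second is shown because Mfrp and C1qtnf5 have the same transcript start and the same gene span in RefSeq, and only a shared probe set on these arrays. Capitals mark matches, on either strand, to CATTCC (a TEAD site), TATATA (a variant TATA sequence) and TAATCC (an OTX2 or CRX site, written GGATTA on the other strand). The stretches lie at chr1:87183064-87183313 and chr9:44101520-44101769, both on the plus strand.
Prss56: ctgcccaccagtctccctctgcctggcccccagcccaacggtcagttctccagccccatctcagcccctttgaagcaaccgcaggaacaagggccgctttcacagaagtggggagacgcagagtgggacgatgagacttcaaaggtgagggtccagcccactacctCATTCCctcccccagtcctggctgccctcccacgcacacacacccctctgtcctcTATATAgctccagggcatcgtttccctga
Mfrp and C1qtnf5: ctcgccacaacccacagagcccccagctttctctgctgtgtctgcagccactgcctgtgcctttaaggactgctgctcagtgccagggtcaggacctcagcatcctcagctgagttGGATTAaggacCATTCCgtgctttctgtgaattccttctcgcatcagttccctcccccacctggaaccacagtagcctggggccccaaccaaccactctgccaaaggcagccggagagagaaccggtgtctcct

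In the Prss56 stretch CATTCC began 84 bases before the start and TATATA 29 bases before it. Among 32544 distinct RefSeq promoter windows, cut to the same 250 bases, 12.6% held CATTCC and 5.01% held TATATA. The RefSeq span of Prss56, which covers predicted transcripts too, begins inside this stretch. In the Mfrp and C1qtnf5 stretch the TAATCC match began 134 bases before the start and CATTCC 123 bases before it, without overlap, and TAATCC was found in 6.25% of windows. The GC box GGGCGG, which 33.0% of windows hold, was found upstream of Adipor1 and Tmem98, and Tmem98 also held CACGTG, the E-box of MITF and USF factors, which 6.03% of windows hold. Adipor1 and Tmem98 held the box CCAAT of the factor NF-Y as well, as did 33.8% of windows. The TATA box TATAAA, present in 12.3% of windows, was upstream of none of the 6. The motifs were chosen after the sequences had been seen, and a match is letters in a window, not a binding site.

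The protease gene Prss56 was read by 1 probe set, 1429647_at, which stood at 112 on the array labelled Mfsd2a KO and at 66.5 on the WT array. The level was thus 45.5 units higher, or 1.68-fold, on the array labelled Mfsd2a KO, a log2 difference of 0.75. Only the array labelled Mfsd2a KO put the gene over the floor, by 18.5 units, whereas on the WT array it lay 27.7 units under it. A gene that passes the floor through its higher array alone had to differ, so its place among measured genes is given without more weight than that. It stood at rank 12 from the top of the 11568 measured genes by difference, and 0.138% of measured genes were at least 1.5-fold higher.

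Dim probe sets vary more, and the Prss56 difference was therefore set beside probe sets of like level. The 6119 probe sets with 1 symbol and a mean level within 1.5-fold of that of Prss56 had a central 95% of log2 differences between -0.29 and 0.29. Of them 0.18% were higher by 1.5-fold or more and 0.147% lower by 1.5-fold or more, and 7 had a larger positive difference than Prss56. The SD among probe sets of the same gene at this level was 0.13, over 889 genes. A second probe set of Prss56 was not analysed here, so its difference rests on these probes alone. The measured genes nearest to Prss56 in log2 difference were Srebf1 (0.76), which encodes a transcription factor of lipid synthesis, Scd2 (0.77), a fatty acid desaturase, and the Y-linked Eif2s3y (0.65). Across 2 arrays this likeness is that of a single difference.

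**Figure D1:**
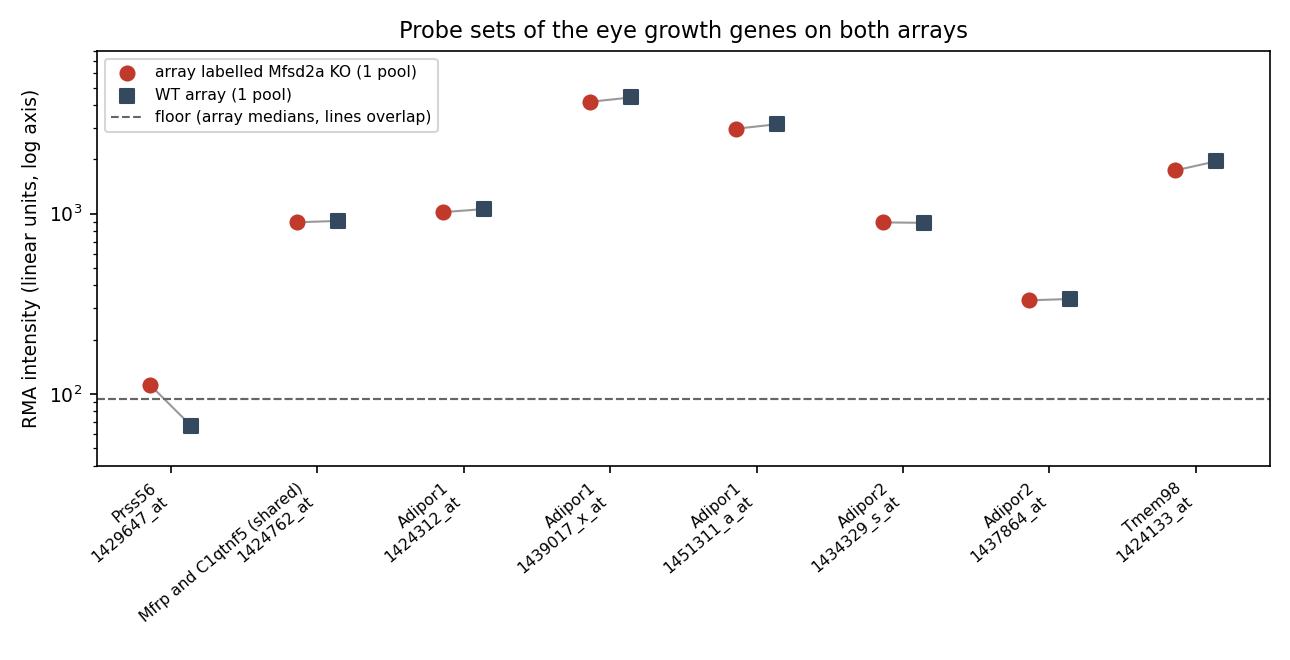
RMA intensity in linear units on a log axis of the 7 probe sets of Prss56, Adipor1, Adipor2 and Tmem98 and of the probe set shared by Mfrp and C1qtnf5, on the array labelled Mfsd2a KO (circles, left) and the WT array (squares, right); each point is 1 pool and the dashed lines are the array medians used as the floor. Prss56 is at 112 and 66.5, on either side of the floor, and the other probe sets lie above it on both arrays with nearly level lines between the arrays.

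Mfrp and C1qtnf5 could not be read apart. In the mouse they lie in tandem at a single locus, where RefSeq gives both the same span, and their shared probe set, 1424762_at, names both in the annotation. It read 896 on the array labelled Mfsd2a KO and 911 on the WT array, a log2 difference of -0.02, which is smaller than the SD of 0.057 among probe sets of the same gene at that level. No level or difference is assigned to Mfrp or to C1qtnf5 from it. Its sign was the same with the arrays centred on their medians, with a level-dependent trend removed and with a pseudocount.

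Adipor1, the receptor whose loss depletes retinal docosahexaenoic acid in mice, was slightly lower on the array labelled Mfsd2a KO in all 3 of its probe sets. The brightest, 1439017_x_at, read 4167 on the array labelled Mfsd2a KO and 4405 on the WT array, a log2 difference of -0.08. The next, 1451311_a_at, read 2957 on the array labelled Mfsd2a KO and 3131 on the WT array, also a difference of -0.08. The third, 1424312_at, read 1019 on the array labelled Mfsd2a KO and 1060 on the WT array, a difference of -0.06. The probe sets thus lay close together, with an SD of their differences of 0.014, although all read the same RNA pools and are no replicates of the genotype. The name of the brightest marks possible cross-hybridisation, and the 2 others, which carry no such mark, gave the same sign. Of the measured genes, 15.1% had a lower difference than the brightest Adipor1 probe set. Among probe sets with 1 symbol and a like level, 10.4%, 8.46% and 16.3% were as low or lower, in the order above. The SD among probe sets of the same gene at these levels was 0.038, 0.044 and 0.059. Differences of this size were thus not rare in these data, though the first 2 exceeded that SD.

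Adipor2, the second adiponectin receptor, differed less. Its brighter probe set, 1434329_s_at, read 894 on the array labelled Mfsd2a KO and 890 on the WT array, a log2 difference of 0.0071. The other, 1437864_at, read 331 on the array labelled Mfsd2a KO and 336 on the WT array, a difference of -0.03. The sign therefore depended on the probe set, and both differences were smaller than the SD among probe sets of the same gene. Only 6.42% of measured genes had a smaller absolute difference than its brighter probe set.

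Tmem98, the Myrf-binding membrane protein, had the largest negative difference of the members. Its 1 probe set, 1424133_at, read 1737 on the array labelled Mfsd2a KO and 1952 on the WT array, which is 214 units lower and a log2 difference of -0.17. That is 1.12-fold lower and did not reach the 1.2-fold size. At its level differences are narrow: among 1906 probe sets with 1 symbol within 1.5-fold of it, the central 95% lay between -0.16 and 0.19, and 2.15% were lower by as much or more. Over all measured genes, 4.24% had a lower difference. Myrf, the transcription factor that Tmem98 binds and a further gene of nanophthalmos, read 517 on the array labelled Mfsd2a KO and 546 on the WT array, a difference of -0.08.

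**Figure D2:**
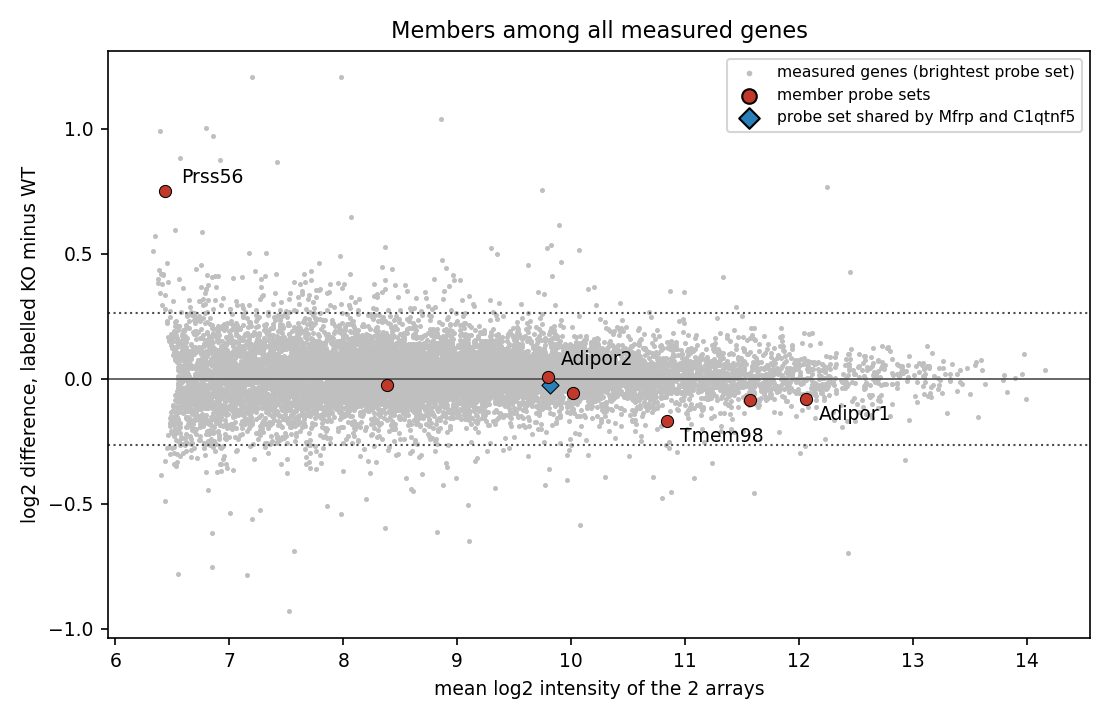
Log2 difference, labelled Mfsd2a KO minus WT, against the mean log2 intensity of both arrays for 11568 measured genes (grey), the member probe sets (red) and the shared probe set of Mfrp and C1qtnf5 (blue diamond); dotted lines mark 1.2-fold. Prss56 stands at 0.75 among dim genes, where the cloud is widest, and the others lie inside the dotted lines, with Tmem98 at -0.17 near the lower rim of genes of its level.

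Markers of the cells that make these proteins in the eye also differed between the pools. Of 18 measured pigment epithelium markers, 16 were below 0, with a median of -0.10, against 42.4% of all measured genes below 0. Of these markers, 4 were at least 1.2-fold lower and none at least 1.2-fold higher, where all measured genes gave 1.17% lower and 1.79% higher. Their summed intensity was 52999 on the array labelled Mfsd2a KO and 56016 on the WT array. Rdh5, a retinol dehydrogenase of the visual cycle, differed by -0.34, Lrat, which makes retinyl esters, by -0.31, the opsin-like Rgr by -0.30 and the potassium channel gene Kcnj13 by -0.27. Rpe65, the isomerase that defines the cell type, read 3301 on the array labelled Mfsd2a KO and 3484 on the WT array, a difference of -0.08. The 2 markers above 0 were Otx2 (0.14) and Ttr (0.02). Ttr, the largest part of the sum, read 16009.5 on the array labelled Mfsd2a KO and 15804 on the WT array. Adipor1 and Tmem98 were lower in the same pool as these markers. The probe set shared by Mfrp and C1qtnf5, also known from the pigment epithelium, differed by -0.02, less than its SD of 0.057. The brighter Adipor2 probe set differed by 0.0071. In such bulk RNA fewer pigment epithelial cells and less RNA in each cannot be told apart, and the part of either in the member differences was not tested.

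Markers of Mueller glia, the source of Prss56 in mouse retina, lay on both sides of 0. Of 15 measured markers, 5 were above 0 and 10 below, with a median of -0.04. At least 1.2-fold higher was 1 of them, where 1.79% of all measured genes were. Their summed intensity was 44342 on the array labelled Mfsd2a KO and 44428 on the WT array. Rlbp1, a retinoid-binding protein that is also among the pigment epithelium markers above, differed by -0.03 and Glul, glutamine synthetase, by -0.04. Crym, a thyroid hormone binding protein, was 1.33-fold higher. The others above 0 were Slc1a3 (0.21), Vim (0.16), Apoe (0.06) and Hes1 (0.02). The part of Mueller glia in the Prss56 difference was not tested.

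Genes listed as markers of lens, cornea and muscle, tissues that border the eye cup, differed between the pools as well. Whether their RNA came from those tissues or from the eye cup itself was not tested. Lens markers were above 0 in 7 of 9 measured genes with a median of 0.21. Their sum was 3093 on the array labelled Mfsd2a KO and 2704 on the WT array. The crystallin genes Cryaa, Crybb2 and Crygf stood at 0.35, 0.23 and 0.38. Bfsp2, the only measured lens marker that is not a crystallin, stood at -0.11. It read 93.2 on the array labelled Mfsd2a KO, under that array's floor, and 101 on the WT array. Mip, Lim2, Bfsp1 and Gja3 lay below the floor on both arrays. Cornea and conjunctiva markers were below 0 in 8 of 8 with a median of -0.36. Their sum was 1511 on the array labelled Mfsd2a KO and 1913 on the WT array. The largest differences were those of Aldh3a1 (-0.62), Krt14 (-0.56), Krt4 (-0.53) and Krt15 (-0.40), while Krt12 and Krt5 stood at -0.11 and -0.33. Aldh3a1 read 92.7 on the array labelled Mfsd2a KO, under its floor, and 142 on the WT array. It thus counted as measured through the WT array alone. Of 3 Krt14 probe sets 1 was over the floor, and their differences ran from -0.67 to 0.11. Muscle markers were below 0 in 8 of 10 with a median of -0.21, Pvalb at -0.61 and Ckm at -0.34. Those above 0 were Acta1 at 0.03 and Myh1 at 0.22. The other Ckm probe set, which lay below the floor, differed by 0.12. The sum of the muscle markers was 3838 on the array labelled Mfsd2a KO and 4230 on the WT array. Of 6 ciliary body and iris markers, a tissue that also holds Mfrp in mice, 4 were below 0, with a median of -0.06, Aqp1 at -0.36, Wfdc1 at -0.15 and Zic1 at 0.08. Their sum was 9313 on the array labelled Mfsd2a KO and 9645 on the WT array. Most of it came from Car2, which read 7401 on the array labelled Mfsd2a KO and 7485 on the WT array. Within the eye cup, the collagen-rich sclera, its outer wall, had a median of 0.04 over 12 markers. Of these, 7 were above 0, 5 were below and none reached 1.2-fold, with Col1a1 at 0.03 and Col1a2 at -0.06. Their sum, lower where the median was higher, was 17240 on the array labelled Mfsd2a KO and 17987 on the WT array. Of all measured genes, 55.8% were above 0 and 42.4% below. By 1.2-fold or more, 1.79% were higher and 1.17% lower. The part of these tissues in the Prss56 difference was not tested.

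Other listed genes of eye size are described without a ranking against Prss56, whose difference was known when it was chosen. Of 30 listed genes of small or absent eyes, 23 were measured, and 0 reached 1.2-fold in either direction. All measured genes gave 1.79% higher and 1.17% lower, so a count of 0 in 23 lies near those shares. The differences ran from -0.13 to 0.20 with a median of -0.02, 10 above 0 and 12 below. Crb1, a polarity protein of retinal glia and photoreceptors whose human variants can give nanophthalmos, read 2454 on the array labelled Mfsd2a KO and 2487 on the WT array, a difference of -0.02.

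Genes tied to refraction and axial length were spread to both sides. Of 29 measured, with a median of 0, 14 were above 0 and 14 below. The size of 1.2-fold was reached by 3 on the higher side and by 2 on the lower. Of all measured genes, 1.79% were higher and 1.17% lower by that size. Higher were Egr1 (0.47), an immediate early transcription factor whose retinal level follows the sign of defocus in animals, Rbp3 (0.43), which carries retinoids across the space behind the photoreceptors, and Cyp26a1 (0.42), an enzyme that breaks down retinoic acid. Lower were Rdh5, named above, and Vip (-0.29), a peptide of amacrine cells, which was singled out after its values were seen. Gjd2, the connexin of neuronal gap junctions whose locus is tied to myopia, differed by 0.06, and Rasgrf1, an exchange factor for Ras, by -0.18.

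Around the adiponectin receptors, 0 of 17 measured genes of the pathway reached 1.2-fold, with a median of -0.0032 and a range from -0.24 to 0.20. Of all measured genes, 1.79% were higher and 1.17% lower by that size, so a count of 0 in 17 lies near those shares. The ligand gene Adipoq lay below the floor. Cdh13, which binds adiponectin at the cell surface, differed by -0.03 and Appl1, the adaptor that binds the receptors, by 0.08. In the PAQR family of receptors, to which Adipor1 and Adipor2 belong, 4 of the 8 other measured genes were above 0 and the median was 0.0098. Paqr3, a Golgi protein of the family, was 1.24-fold higher (126 on the array labelled Mfsd2a KO and 101 on the WT array, both close to the floor), and Paqr4 differed by -0.05.

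The relatives of C1qtnf5 and of Mfrp were read beside all measured genes, of which 1.79% were 1.2-fold or more higher and 1.17% lower. In lists this short, counts of 0 or 1 past that size lie near those shares. Of 13 listed genes with a C1q domain 6 were measured, 4 above 0 and 2 below, with a median of 0.11 and none at 1.2-fold, C1qtnf4 and C1qtnf6 among them at 0.11 each. With the mean of probe sets of each gene, without a floor, at a floor of the 70th percentile or with the trend removed, that median was between 0.021 and 0.11. Of 17 measured genes with a frizzled-type domain 6 were above 0 and 9 below, with a median of -0.0087. Sfrp2, a secreted Wnt antagonist, was the 1 past 1.2-fold, at 304 on the array labelled Mfsd2a KO and 370 on the WT array (-0.28), and the receptor genes Fzd1 and Fzd2 differed by -0.10 and -0.01.

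Genes that supply docosahexaenoic acid were mostly higher on the array labelled Mfsd2a KO. Of 21 measured, 18 were above 0 and 3 below, with a median of 0.12, where 55.8% of all measured genes were above 0 and their median was 0.014. Those below 0 were Agpat3 (-0.10), Lpl (-0.07) and Lpcat4 (-0.06). Pla2g6, Pnpla2 and Lpcat1 also fell below 0 when the probe sets of each gene were averaged. The list includes Mfsd2a itself and was chosen with earlier results of these arrays known, so that its counts are a description. The size of 1.2-fold was reached by 5 on the higher side, against 1.79% of all measured genes. Fads1 (0.52) and Fads2 (0.45), the desaturases of polyunsaturated fatty acids, were among them, as were Mfsd2a (0.43), whose direction goes against the label, Rbp3, and Acsl4 (0.37), an acyl-CoA synthetase singled out after its values were seen. Elovl2, the elongase next in that path, differed by 0.19.

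**Figure D3:**
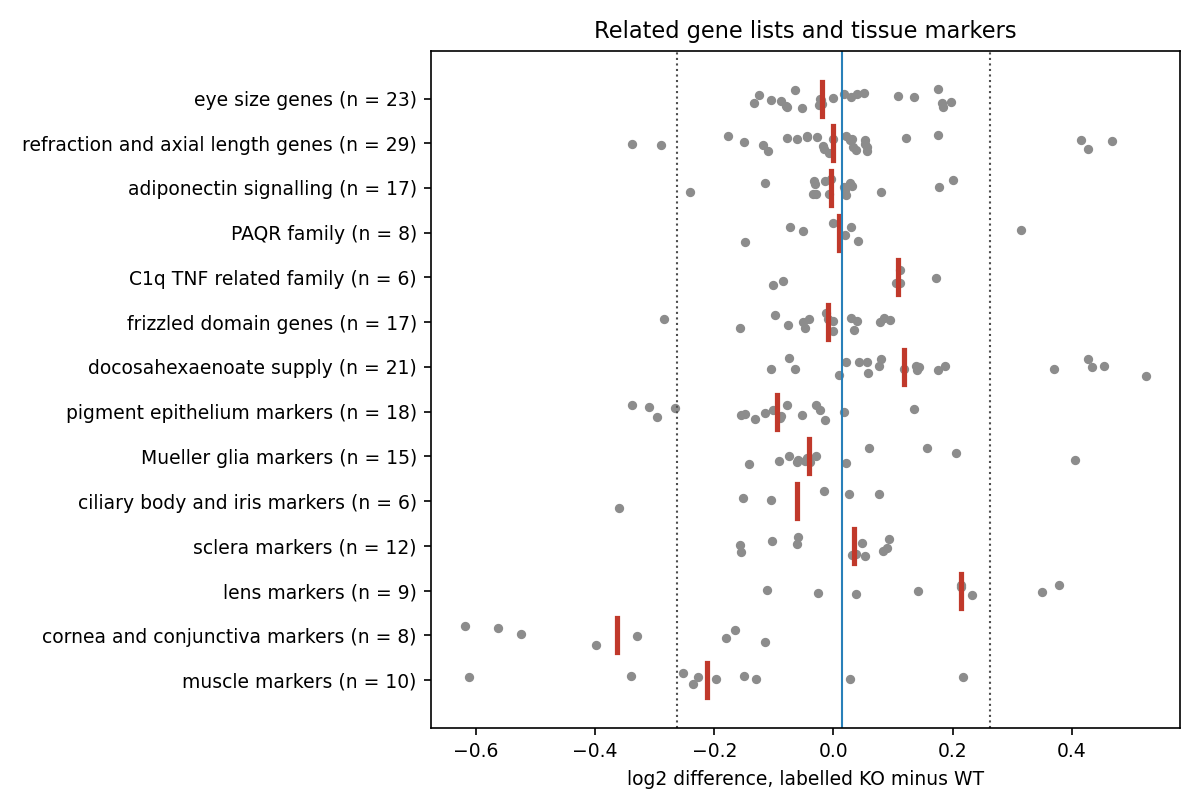
Log2 difference, labelled Mfsd2a KO minus WT, of each measured gene (grey points, spread vertically to be seen) in 14 gene lists, with the median of each list (red bar), the median of all measured genes (blue line at 0.014) and 1.2-fold (dotted lines). The lists of eye size, refraction and adiponectin signalling have medians within 0.02 of 0, docosahexaenoate supply and lens markers lie to the right, and pigment epithelium, cornea and muscle markers lie to the left.

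The chromosomal surroundings of the members were read for regional differences, with the 5 nearest measured genes on each side in RefSeq order, a reading chosen after the first results. Around Prss56 on chromosome 1 the 10 neighbours ran from -0.27 to 0.26 with a median of -0.03, and 4 were above 0. All were brighter than Prss56, and dim probe sets vary more. The dimmest, Dis3l2, read 148 on the array labelled Mfsd2a KO and 163 on the WT array. The nearest measured genes were Dis3l2, an exonuclease (-0.14), and Eif4e2, a cap-binding protein (-0.04). The 1 neighbour past 1.2-fold was Kcnj13, the pigment epithelium gene above, which was lower, while Prss56 was higher. Around Mfrp and C1qtnf5 on chromosome 9 the neighbours ran from -0.20 to 0.27, with Rnf26 (0.07) and Usp2 (-0.11) the nearest. The 1 past 1.2-fold there was Mcam, a cell adhesion protein of vessel walls (0.27). Around Adipor1 on chromosome 1, Adipor2 on chromosome 6 and Tmem98 on chromosome 11, 0 of 10 neighbours each reached 1.2-fold, with medians of -0.0048, 0.03 and 0.0064. Of all measured genes, 1.79% were higher and 1.17% lower by that size, so counts of 0 or 1 in 10 lie near those shares. A regional cause was not tested.

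**Figure D4:**
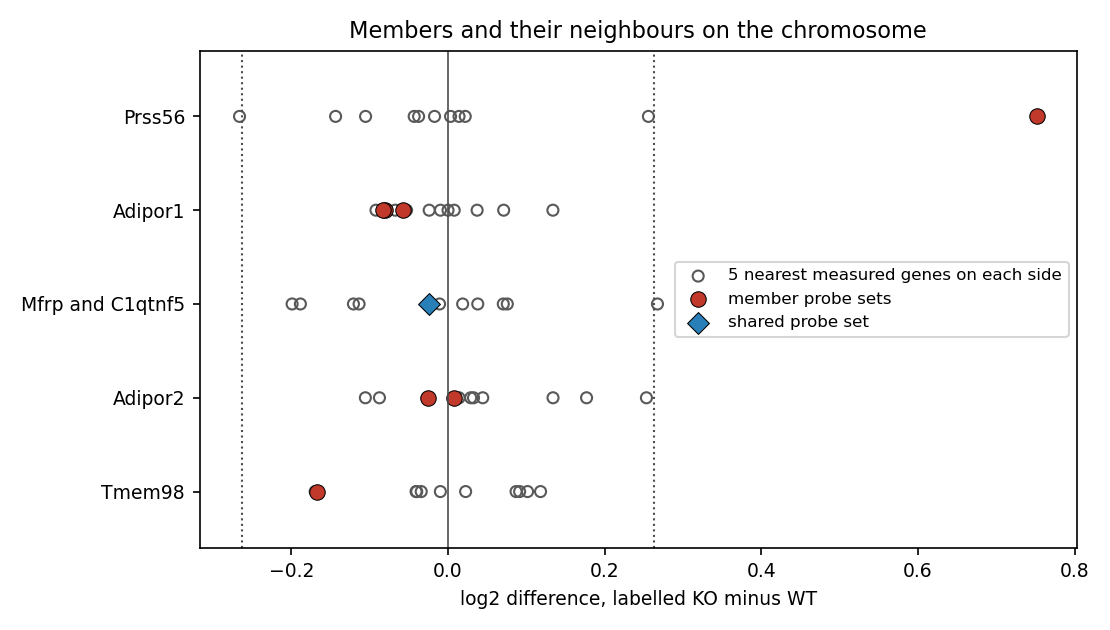
Log2 difference, labelled Mfsd2a KO minus WT, of the member probe sets (red), the probe set shared by Mfrp and C1qtnf5 (blue diamond) and the 5 nearest measured genes on each side of each locus (open circles); dotted lines mark 1.2-fold. Prss56 is at 0.75, a difference known when it was chosen, and its neighbours, all brighter than it, end at 0.26. The other members lie within the range of their neighbours.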

How the data were processed

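Total RNA of eye cups, 6 animals a genotype, was pooled and read on 1 array per genotype. The authors deposited linear intensities. RMA, which is robust multi-array averaging, and Partek 6.6 were used, per the submitters' processing notes. RMA equalises the arrays and shrinks differences of dim probe sets. The settings, scanner files and scan dates were not used here or are not given in the sources used here. The number of arrays limits the precision.

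Base 2 logarithms were taken. A gene took its brightest probe set among the 34958 with 1 symbol, and 932 with several symbols were left out except the one shared by Mfrp and C1qtnf5. Of the 64 Affymetrix controls none was used. Alternatives were other sizes, floors, probe set rules, median centring, a loess trend (span 0.3, 3 iterations) and a pseudocount of 16. By rule, the text names every member probe set, Mfsd2a and the 3 genes nearest to a member past 1.2-fold. Per list, the rule adds up to 4 genes past 1.2-fold and the first 2 measured. Further genes, such as sex-linked genes, exceptions within lists, genes below the floor and chromosomal neighbours, were named outside this rule. Members and lists were chosen with earlier results of these data known, and the lists were written from general knowledge. Python 3.11.15, numpy 2.4.6, pandas 2.3.3 and statsmodels 0.14.6 were used, and the steps were tested on simulated data.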

Additional observations from a re-analysis of the deposited data

How the results depend on the processing

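No paired analysis was possible because a genotype holds only 1 array. The Prss56 difference of 0.75 became 0.63 with a pseudocount of 16, and at a floor of the 70th percentile 0 members were at least 1.2-fold higher, since Prss56 is then below the floor. It was 0.78 at most under the other alternatives, and Prss56 counted as past the size at 1.3-fold and 1.5-fold. Adipor1 lay between -0.09 and -0.07, Tmem98 between -0.18 and -0.16, and the shared probe set of Mfrp and C1qtnf5, whose alternatives were added after seeing the data, between -0.04 and -0.01. Adipor2 lay between -0.03 and 0.02, on both sides of 0. Counts of members at least 1.2-fold lower were 0 under every alternative run. The medians of the lists of eye size, refraction, adiponectin signalling, PAQR family and sclera reached 0 or changed sign, within -0.05 and 0.04, and the cause was not tested. No alternative could be run for Mfrp or C1qtnf5 alone.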
